A study of Mus musculus with 42 samples.

Results

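Colony stimulating factors and their receptors were followed at the mRNA level in mouse bone marrow-derived macrophages (BMDMs). The genes were chosen by symbol. They are the 3 ligand genes Csf1, Csf2 and Csf3 and the 5 receptor chain genes Csf1r, Csf2ra, Csf2rb, Csf2rb2 and Csf3r, 8 of the 21951 genes in the expression table. Of these, 7 are also among the 12558 genes with decay values, and Csf2 is not.

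BMDMs of C57BL/6 background came from WT mice or from mice labelled TTP-/-, called ΔM here, in which Zfp36 is deleted by a Cre recombinase driven by the lysozyme M promoter of myeloid cells. The product of Zfp36, tristetraprolin (TTP), recognizes AU-rich elements of mRNAs and promotes their decay. Donors were 7 to 9 weeks old, and all cells, WT included, were grown in medium containing CSF-1 from L929 cells. Cells were left untreated or received LPS, the lipopolysaccharide of bacterial walls, at a dose of 10 ng/ml during 3 or 6 h, and at both of these times transcription was blocked with actinomycin D (5 µg/ml) for 0, 45 or 90 min in fresh medium. The 42 libraries form 14 groups of 3 biological replicates, but the tables give 1 FPKM value (fragments scaled to exon length and to the mapped total) for each group without actinomycin D and 1 decay rate for each genotype and LPS time. No spread between replicates and no depth of a library is therefore known, no test was possible, and every ratio below is a description of 2 pooled values.

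Colony stimulating factors are secreted cytokines that control the survival, growth and activation of myeloid cells. CSF-1 acts through a receptor tyrosine kinase and maintains macrophages, GM-CSF (Csf2) acts through an α chain and a shared β chain that recruit the kinase JAK2, and G-CSF (Csf3) drives the production and release of neutrophils through a single-chain receptor. The mRNAs of GM-CSF and G-CSF are textbook examples of short-lived transcripts with AU-rich elements in the 3′ UTR, and the GM-CSF mRNA is a known target of TTP.

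The sequences of AU-rich stretches are shown because the ligand mRNAs differ in them and because TTP acts through them. The core pentamer ATTTA and the longer TATTTAT were searched on the transcribed strand of the longest 3′ UTR in the GENCODE annotation, overlapping matches included. The 3 ligand lines below give the 30 bases of each 3′ UTR richest in ATTTA. The Csf3 line contains the TTP sites that the crosslinking data of the study place in this 3′ UTR at 6 h of LPS, and the Csf3r line is a TTP site inside an intron. Letters and positions are those of the NCBIM37/mm9 genome, the build of the crosslinking data, read 5′ to 3′ on the gene's strand with ATTTA in capitals.
Csf1, 3′ UTR, chr3:107544027-107544056, minus strand: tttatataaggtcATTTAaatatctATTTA
Csf2, 3′ UTR, chr11:54060830-54060859, minus strand: ttttaaatATTTATTTATTTATTTATTTAt
Csf3, 3′ UTR, chr11:98564299-98564328, plus strand: atagtttATTTAtctctATTTAatATTTAt
Csf3r, intron 6 of transcript Csf3r-001, chr4:125709909-125709988, plus strand: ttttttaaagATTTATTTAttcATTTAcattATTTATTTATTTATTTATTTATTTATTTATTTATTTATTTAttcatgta

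The whole 3′ UTR of Csf2 (317 bases) held ATTTA 9 times and TATTTAT 9 times, a count that none of the 500 3′ UTRs nearest in length reached (6.8% of them held any TATTTAT). The 3′ UTR of Csf3 (669 bases) held ATTTA 6 times, as 0.8% of 3′ UTRs of like length did, and TATTTAT 2 times. The longer 3′ UTR of Csf1 (2111 bases) held 4 and 1, against 45% of 3′ UTRs of like length with at least 4 ATTTA. Among the receptors, Csf1r held ATTTA 3 times, Csf3r 1 time, and Csf2ra, Csf2rb and Csf2rb2 had none, where 53.8%, 92.6% and 86.2% of 3′ UTRs of like length had at least 1. TATTTAT was found in no receptor 3′ UTR and in 27.8% of the 3′ UTRs of all expressed genes. The intronic Csf3r site lies 366 bases into an intron and holds 13 overlapping ATTTA. The plus strand of that chromosome was cut into 1898554 adjacent windows of 80 bases without overlap. Of these, 11.95% held any ATTTA and 20 held at least 13. The window borders were fixed and can split such a repeat, whereas the borders of the site follow the crosslinks. A match of letters is a description and does not show binding.

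The deletion was visible in the files. Zfp36 was at 118, 1017 and 1782 FPKM in WT at 0, 3 and 6 h of LPS, and at 5.98, 16.3 and 31.0 FPKM in ΔM. Between 10243 and 11490 genes per group had an FPKM of at least 1. The 9 macrophage markers found in the table, Csf1r among them, summed to between 5877 and 12963 FPKM, and markers of dendritic cells, mast cells and basophils, stroma and B cells each summed to at most 4.27 FPKM. T cell markers summed to at most 8.91 FPKM, with Cd3e and Cd3g under 1 FPKM. The macrophage sum was lower in ΔM than in WT at each time, and Lyz2, the lysozyme gene of the Cre promoter, made 6936 and 4067 FPKM of it in untreated WT and ΔM cells. Without Lyz2 the sum was 6027 FPKM (WT) and 6476 FPKM (ΔM) at 0 h, 5101 and 4631 FPKM at 3 h, and 3831 and 3833 FPKM at 6 h. At 0 h Mertk and Fcgr1 of this list were past 1.5-fold upward in ΔM, and the median log2 ratio of the list was 3.5e-05. The 12 neutrophil markers summed to between 14.04 and 64.8 FPKM. At 3 h, but not at 0 or 6 h, the ratio of ΔM to WT was related across genes to transcript GC content (Spearman's rho -0.42 over 9500 genes that share the same libraries, against 0.04 and -0.01). In bulk samples fewer cells of a type and less RNA per cell cannot be told apart.

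**Figure D1:**
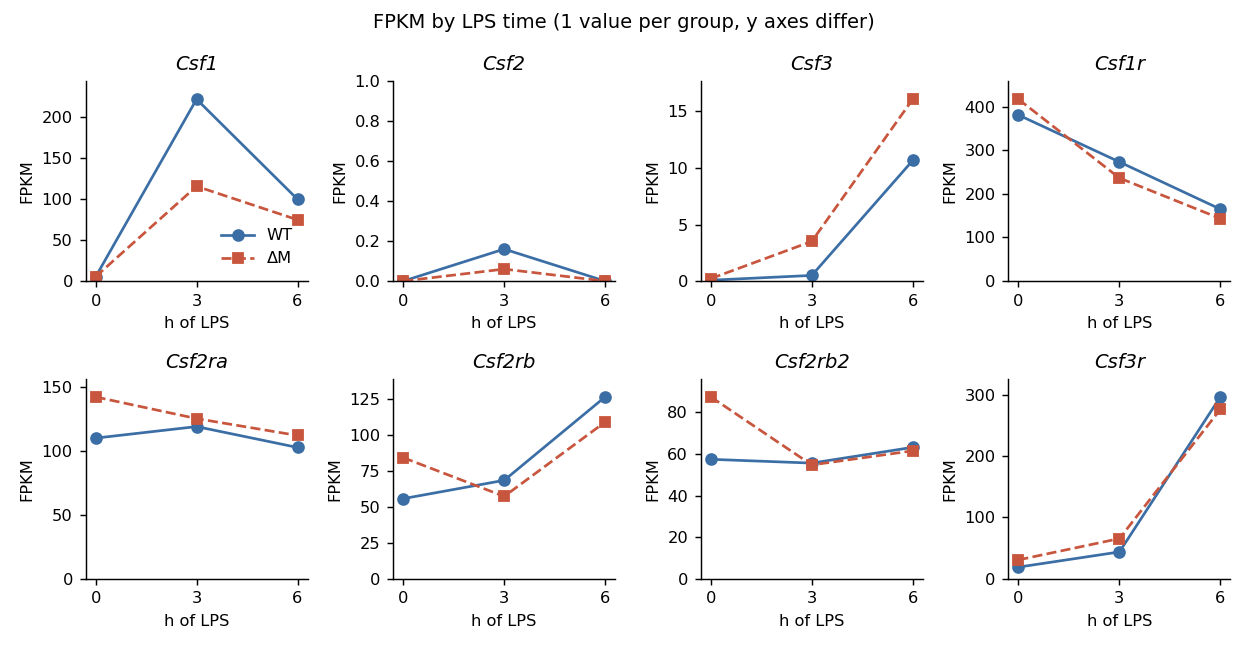
FPKM (y axes differ) against hours of LPS for each of the 8 genes, with WT as blue circles and ΔM as red squares, each point 1 pooled value per group. Csf1 peaked at 3 h, Csf3 and Csf3r were highest at 6 h, Csf1r was lowest at 6 h, and Csf2 stayed at or under 0.16 FPKM.

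In the response of WT cells to LPS, the ligand Csf1 and the receptor Csf3r were higher at 3 h than at 0 h by more than 2-fold, Csf3 and Csf3r were higher at 6 h than at 3 h, and Csf1 was lower again. Values are log2 ratios of FPKM + 1 where the mean FPKM of both groups was at least 1, and 2-fold was the limit for a call. From 0 to 3 h in WT, 2 of 6 genes compared were past the limit upward and 0 downward, beside 7.41% and 12.9% of all genes. From 3 to 6 h in WT, 2 of 7 were past it upward and 1 downward, beside 3.8% and 6.3%. In ΔM, 3 of 7 genes were past it upward and 0 downward from 0 to 3 h (7.5% and 11.6% of all genes), and 2 of 7 upward and 0 downward from 3 to 6 h (3.45% and 6.03%). Csf3 passed the filter only through its later level in WT from 3 to 6 h (0.5 and 10.7 FPKM). The same held in ΔM from 0 to 3 h (0.22 and 3.51 FPKM). With a pseudocount of 5 its log2 ratio was 1.51 in the former and 0.71, under the limit, in the latter. The median over all genes was itself below 0, at -0.39 in WT and -0.34 in ΔM from 0 to 3 h and -0.21 in both from 3 to 6 h. With these medians subtracted, Csf1 was no longer past the limit downward and Csf2rb was past it upward from 3 to 6 h in WT, which turned the split of 2 higher and 1 lower into 3 and 0.

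Between genotypes, the ratio of ΔM to WT was called at 1.5-fold. Untreated ΔM cells had more mRNA of 3 receptor chains, Csf2rb, Csf2rb2 and Csf3r, and of the 6 genes compared none was past the limit downward (3.16% and 5.05% of all genes were higher and lower). At 3 h 1 of 7 was higher (Csf3) and 1 was lower (Csf1), beside 3.34% and 4.52%. Csf3 passed the filter on low values there only through its ΔM level, and with a mean FPKM of at least 5 the Csf1 call alone was left. With the median of all genes, or of the 500 genes nearest in GC content, subtracted, Csf3r was past the limit as well, which made 2 higher and 1 lower. At 6 h 0 of 7 were past it in either direction, beside 1.79% and 3.19%. The median log2 ratio of the genes compared was 0.48, -0.02 and -0.10 at 0, 3 and 6 h, against -0.05, -0.02 and -0.03 over all genes.

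**Figure D2:**
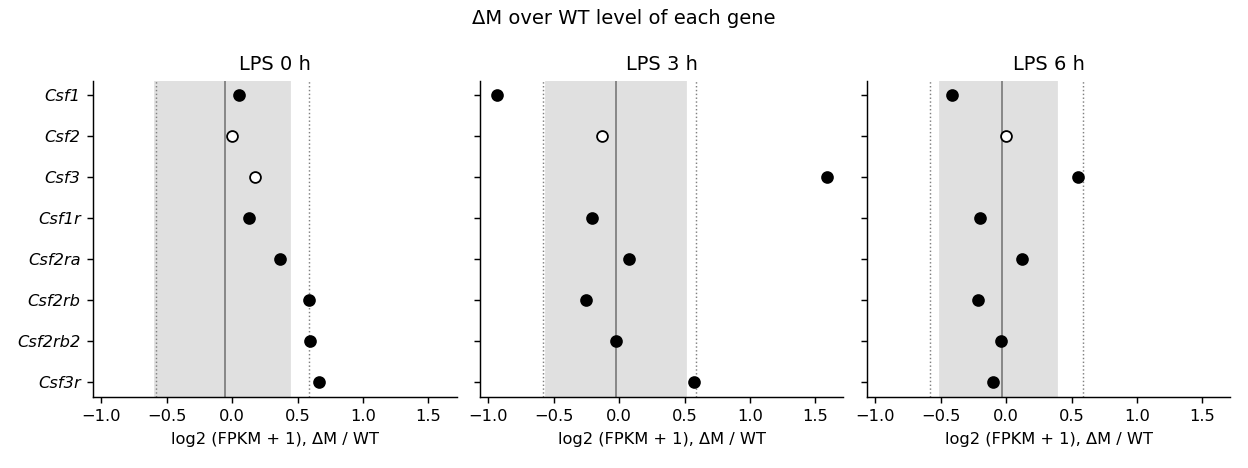
Log2 ratio of FPKM + 1, ΔM over WT, for each gene (rows) at 0, 3 and 6 h of LPS (panels). Filled points had a mean FPKM of at least 1 and open points did not, the grey band spans the 5th to 95th percentile of all genes compared, the solid line is their median and dotted lines mark 1.5-fold. Csf2rb, Csf2rb2 and Csf3r lay above the band at 0 h, and Csf1 and Csf3 lay on opposite sides of it at 3 h.

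Csf1 encodes CSF-1, the growth factor that macrophages depend on. Its mRNA was at 5.13 FPKM (WT) and 5.37 FPKM (ΔM) without LPS, at 222 and 116 FPKM after 3 h, and at 99.7 and 74.7 FPKM after 6 h. The untreated cells were alike and both stimulated ΔM groups were below the WT groups. On the scale of FPKM + 1, the 3 h level was 36.3 times the untreated one in WT and 18.3 times in ΔM, higher ratios than those of 99.6% and 99.5% of genes. The log2 ratio of ΔM to WT was 0.06 at 0 h, -0.93 at 3 h (0.523 times, with 1.14% of genes lower) and -0.41 at 6 h (0.752 times, with 7.20% of genes lower). With the median of genes nearest in GC content subtracted, the 3 h value was -0.80. From 3 to 6 h the level changed by -1.14 on the log2 scale in WT and by -0.62 in ΔM, so that the genotypes were closer to each other at 6 h than at 3 h.

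Csf3 encodes G-CSF and ran the other way. It was listed at 0.08 FPKM (WT) and 0.22 FPKM (ΔM) without LPS, at 0.5 and 3.51 FPKM after 3 h, and at 10.7 and 16.1 FPKM after 6 h. ΔM exceeded WT at each time, and the WT value at 3 h was itself under 1 FPKM. The size of the 3 h ratio is therefore not well defined: on the log2 scale it was 1.59 with the pseudocount of 1, 2.59 with 0.1 and 0.63 with 5, past 1.5-fold with each. At 6 h the ratio was 0.55 (1.46-fold), just under the limit, and it was past it with a pseudocount of 0.1 or with the GC correction (0.60). The WT level was 7.77 times higher at 6 h than at 3 h on FPKM + 1 and the ΔM level 3.78 times, so most of the WT increase came after 3 h.

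Csf2 encodes GM-CSF. It was listed at 0 in 4 of the 6 groups, and at 0.16 FPKM (WT) and 0.06 FPKM (ΔM) at 3 h. Of 72 genes for ribosomal proteins, which every cell uses, none was at 0 in every group, which does not show whether a low mRNA such as Csf2 would be detected. No fold is given for Csf2, since no group reached 1 FPKM.

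Csf1r encodes the receptor for CSF-1 and for interleukin 34. It was the most abundant of the 8 mRNAs per length in untreated cells and at 3 h. It was at 381 FPKM (WT) and 417 FPKM (ΔM) without LPS, at 273 and 236 FPKM after 3 h, and at 165 and 143 FPKM after 6 h. Levels went down at each step in both genotypes. The change from 0 to 3 h was -0.48 in WT and -0.82 in ΔM on the log2 scale, beside the all-gene medians of -0.39 and -0.34, and 42.4% of genes in WT and 18.4% in ΔM had a lower ratio than Csf1r. From 3 to 6 h it was -0.72 in both, with 13.8% and 13.1% of genes lower. The ΔM to WT ratio was 0.13, -0.21 and -0.20 at 0, 3 and 6 h, inside the range of most genes.

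Csf3r encodes the G-CSF receptor, best known from neutrophils and their precursors. It was at 19.0 FPKM (WT) and 30.8 FPKM (ΔM) without LPS, at 43.8 and 65.6 FPKM after 3 h, and at 296 and 276 FPKM after 6 h. The ΔM groups were higher at 0 and 3 h, and at 6 h WT was slightly higher. The log2 ratio of ΔM to WT was 0.67 at 0 h (1.59-fold, with 97.5% of genes lower), 0.57 at 3 h (1.49-fold, just under the limit) and -0.10 at 6 h. From 3 to 6 h the mRNA was 6.64 times higher in WT and 4.16 times in ΔM on FPKM + 1, above 99.8% and 99.6% of genes. At 6 h Csf3r had passed Csf1r, with 1.80 times the FPKM of Csf1r in WT and 1.93 times in ΔM, where untreated WT cells had 19.99 times more Csf1r than Csf3r.

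Some neutrophil markers differed at 0 h as Csf3r did, and others went the other way. At 0 h the 12 markers summed to 44.9 FPKM (WT) and 64.8 FPKM (ΔM), 1.44 times more, with S100a8 (6.84 and 14.3 FPKM), S100a9 (8.34 and 18.4 FPKM) and Retnlg (2.61 and 8.38 FPKM) past 1.5-fold upward and 0 of the 5 markers compared past it downward. Mmp8, the most abundant marker in both, was at 22.6 and 19.1 FPKM. Ngp, Prtn3, Elane and Camp also had lower values in ΔM than in WT. Ly6g (0.32 FPKM in WT and 1.15 FPKM in ΔM) and Cxcr2 (0.3 and 0.5 FPKM) had higher values in ΔM, and Mpo and Ltf had equal ones. At 3 h they summed to 16.5 and 14.04 FPKM, and at 6 h to 14.6 and 24.7 FPKM, of which S100a8 made 4.21 and 15.9 FPKM. The granule and receptor genes Mpo, Elane, Ltf, Camp and Cxcr2 were under 1 FPKM in all 6 groups, and Ly6g was listed at 0 in the 4 stimulated groups. Their part in the 0 h difference was not tested. In WT from 0 to 6 h the marker sum was lower and the Csf3r level was 15.6 times higher in FPKM. Fewer cells and less marker mRNA per cell cannot be told apart here, so the share of neutrophils at either time is not known.

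Csf2ra encodes the GM-CSF receptor α chain, which binds the cytokine. It was at 110, 119 and 103 FPKM in WT and at 143, 126 and 112 FPKM in ΔM at 0, 3 and 6 h. Its 6 values spanned the narrowest range in proportion among the 5 receptor genes. The ΔM to WT ratio was 0.37, 0.07 and 0.12 on the log2 scale, none past the limit.

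Csf2rb encodes the β chain shared by the receptors for GM-CSF, interleukin 3 and interleukin 5, and Csf2rb2 encodes a second β chain of the mouse that serves interleukin 3. Csf2rb was at 55.8, 68.6 and 127 FPKM in WT and at 84.4, 57.4 and 109 FPKM in ΔM at 0, 3 and 6 h. Csf2rb2 was at 57.4, 55.6 and 63.2 FPKM in WT and at 87.4, 54.7 and 61.5 FPKM in ΔM. Both were higher in ΔM at 0 h and at 0.839 to 0.984 times WT at the later times. At 0 h the log2 ratios were 0.59 and 0.60 (1.503-fold and 1.513-fold, barely past the limit), with 96.9% and 97.0% of genes lower. From 3 to 6 h Csf2rb was 1.83 times higher in WT and 1.89 times in ΔM, against 1.13 and 1.12 times for Csf2rb2, so that the ratio of Csf2rb to Csf2rb2 went from 0.972 in untreated WT cells to 2.004 at 6 h.

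The paired β chain genes lie next to each other on chromosome 15 (Csf2rb at 78325800 to 78351001 and Csf2rb2 at 78282507 to 78305721, GRCm38.p6). Their coding sequences were 95.2% identical over 2631 aligned positions, and of all stretches of 100 bases, the read length, 6.97% of the Csf2rb transcript and 6.78% of the Csf2rb2 transcript occur letter for letter in the other. How reads that fit both genes were shared is not given in the sources used here, so the split between them is uncertain. Taken as 1 gene, their summed FPKM gave log2 ratios of ΔM to WT of 0.60, -0.15 and -0.15 at 0, 3 and 6 h.

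Decay was read from the fitted change after actinomycin D, given as log2 units over 90 min. Because FPKM is scaled per library, the change is relative to the other mRNAs, and values above 0 mark mRNAs that gained share. The files give a half-life in min below 180 min and write "stable" otherwise. A gene was called slower in ΔM when its half-lives were at least 2-fold apart or when it was stable in ΔM only. Both ligand mRNAs with decay values, Csf1 and Csf3, were called slower in ΔM at 3 and at 6 h, and none of the 5 receptor mRNAs was called. That makes 2 of 7 genes slower and 0 faster at each time, beside 6.86% slower and 8.04% faster of 10653 genes at 3 h and 7.57% slower and 2.29% faster of 10219 genes at 6 h. At 3 h Csf3 passed the filter on low values only through ΔM, and 1 gene (Csf1) was called where an FPKM of at least 1 was asked of each genotype, an alternative chosen after seeing the data.

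**Figure D3:**
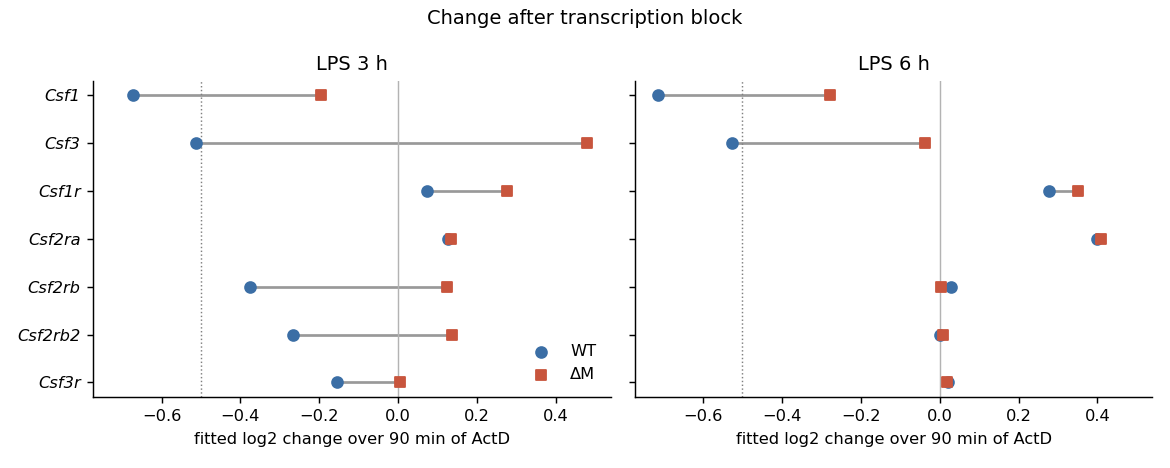
Fitted log2 change over 90 min of actinomycin D (x axis) for the 7 genes with decay values (rows) at 3 and 6 h of LPS (panels), WT as blue circles and ΔM as red squares, each from 1 fit. The dotted line marks a half-life of 180 min, beyond which mRNAs are written as stable. WT values of Csf1 and Csf3 lay left of it in both panels, and their ΔM values lay right of it.

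In WT the Csf1 mRNA had a half-life of 134 min at 3 h and 126 min at 6 h, and in ΔM it was stable at both. The fitted change over 90 min was -0.67 in WT and -0.19 in ΔM at 3 h (62.7% and 87.4% left), and -0.71 and -0.28 at 6 h (61.0% and 82.4% left). The difference, ΔM minus WT, was 0.48 at 3 h and 0.43 at 6 h, above 89.8% and 93.1% of genes and alike at both times. Csf1 remained called when the median change of all genes was subtracted in each condition. It was called at neither time when a difference of at least 0.5 was asked for instead.

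The Csf3 mRNA had WT half-lives of 175 and 171 min, close to the 180 min border, and was stable in ΔM. At 3 h the fitted change was -0.51 in WT and 0.48 in ΔM, a difference of 0.99, but the WT fit at 3 h rests on an mRNA at 0.5 FPKM. At 6 h, where both groups were above 10 FPKM, the change was -0.53 in WT and -0.04 in ΔM (69.5% and 97.4% left), a difference of 0.49, above 94.7% of genes. Subtracting the median change of all genes lost both Csf3 calls, since the WT half-lives then passed 180 min, while the differences themselves were then 1.07 at 3 h and 0.45 at 6 h. Csf3 and Csf1 thus had WT changes of similar size, with 21.0% and 14.9% of genes lower at 6 h.

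All 5 receptor mRNAs were written as stable in all 4 conditions. Csf2rb and Csf2rb2 still differed between genotypes at 3 h, with changes of -0.37 and -0.27 in WT and of 0.12 and 0.14 in ΔM. The Csf2rb difference of 0.50 was as large as that of Csf1, although Csf2rb was not called, and the Csf2rb2 difference was 0.40. At 6 h both differences were near 0, at -0.03 and 0.01. Csf1r was at 0.07 and 0.28 at 3 h and at 0.28 and 0.35 at 6 h, in WT and ΔM, among the mRNAs that gained share under the block. Csf2ra gained as well, by 0.13 in both genotypes at 3 h and by 0.40 and 0.41 at 6 h. Csf3r, whose intronic site is printed above, went from -0.16 in WT to 0.003 in ΔM at 3 h, a difference of 0.16, and was at 0.02 in both at 6 h. Over all genes the median difference amounted to -0.04 (3 h) and 0.05 (6 h).

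Level and decay of the ligands were then set side by side. Csf3 was slower to decay and higher in level in ΔM, while Csf1 was slower to decay and lower in level, at both times. Of the 731 mRNAs called slower in ΔM at 3 h, 14 were at least 1.5-fold higher in level, Csf3 among them, and 59 were at least 1.5-fold lower, Csf1 among them. At 6 h 25 of 774 were higher and 48 were lower, with neither Csf1 nor Csf3 past the limit. The libraries taken at 0 min of actinomycin D give the level and are also the first point of the decay fit, so the pair of values is not independent. A low 0 min value in ΔM lowers the ratio and raises the fitted slope by construction, and 79.5% of the slower mRNAs at 3 h and 68.3% at 6 h had a ratio below 0, beside 52.6% and 55.9% of all genes with decay values.

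**Figure D4:**
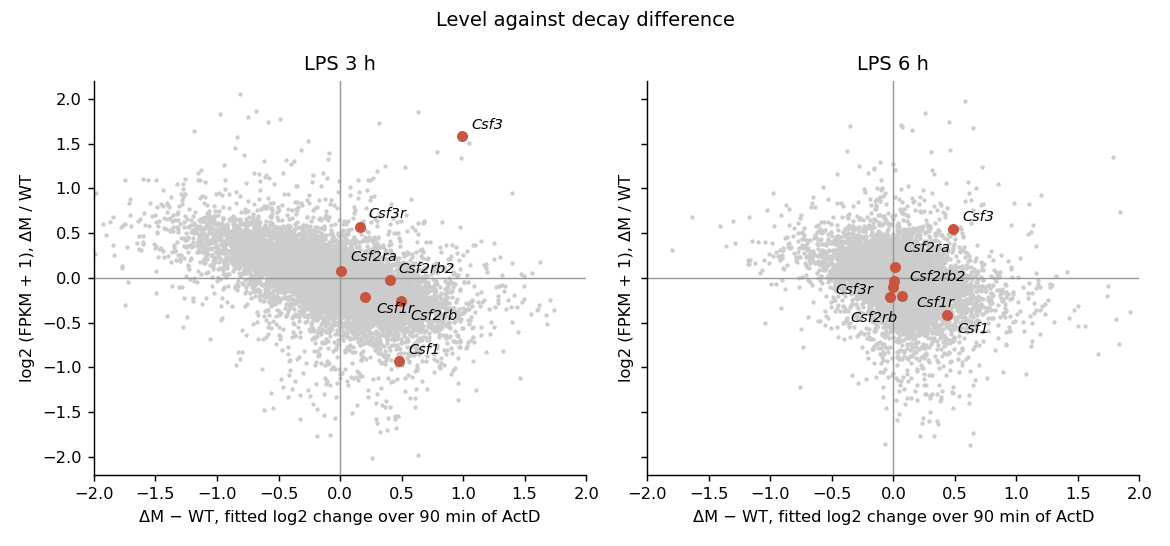
Log2 ratio of FPKM + 1, ΔM over WT (y axis), against the difference of the fitted log2 change over 90 min of actinomycin D, ΔM minus WT (x axis), at 3 and 6 h of LPS, with all genes in grey (genes beyond the axis limits are not drawn) and the 7 genes with decay values in red. Both axes use the same 0 min libraries. Csf3 lay in the upper right and Csf1 in the lower right quadrant at both times, and the receptors lay near the vertical line at 6 h.

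The genes most like each of the 7 expressed members over the 6 groups were found by the root mean square difference of centred log2(FPKM + 1), with 12158 genes compared. Csf1 was closest to Nfkbiz (0.25), Ccrl2 (0.31) and Tnfaip3 (0.31), which also peaked at 3 h. Csf3 and Csf3r shared their list, with March1 (0.26 from Csf3 and 0.25 from Csf3r), Apol9b (0.35 and 0.15) and Slfn4 (0.36 and 0.25), all highest at 6 h. Csf1r was closest to Hnrnpf (0.05), A730015C16Rik (0.05) and Cat (0.05), and Csf2ra to Rpl29 (0.04), Tomm22 (0.05) and Fmn1 (0.06), which moved little. Csf2rb was closest to Alas1 (0.08), Gmppb (0.09) and Slc2a1 (0.13). For Csf2rb2 they were Cox20-ps (0.07), Lime1 (0.09) and 2610015P09Rik (0.09), of which each stayed at or under 3.11 FPKM. These are 21 places held by 18 different genes, and by Pearson correlation instead 4 of the 21 places kept their gene.

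Among other ligands and receptors of the same families, 9 of the 22 listed genes could be compared at 0 and 3 h and 7 at 6 h. Interleukin 34, the other ligand of the CSF-1 receptor (Il34), was listed at 0.81 FPKM or less in every group, and Il3ra, the interleukin 3 receptor α chain that pairs with the β chains, was between 22.8 and 30.9 FPKM. No gene of the list was called at 3 h. Osm, a cytokine of the interleukin 6 family, was at 2.4 FPKM (WT) and 6.05 FPKM (ΔM) at 6 h, a log2 ratio of 1.05. Kitl, the ligand of KIT, was at 9.46 and 5.09 FPKM at 0 h and was the only call there, beside 5.05% of all genes lower at 0 h and 1.79% higher at 6 h. The decay of Osm and of Pdgfa, a growth factor gene, was slower in ΔM at 3 and 6 h, and that of Flt3l at 6 h.

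In the list of signalling and turnover of the CSF-1 receptor, 1 of 26 genes was higher and 1 lower in ΔM at 0 h, and 0 of 25 were higher and 1 lower at 3 h and at 6 h. Over all genes 3.16% were higher and 5.05% lower at 0 h, 3.34% and 4.52% at 3 h, and 1.79% and 3.19% at 6 h. The called genes of the list at 0 h were the kinase genes Src (0.95 FPKM (WT) and 3.88 FPKM (ΔM)) and Fyn (32.9 and 17.8 FPKM). Src passed the filter on low values only through its ΔM level. The others were the adaptor gene Dok2 at 3 h (31.0 and 19.6 FPKM) and Pstpip2 at 6 h (70.7 and 45.3 FPKM). Those at 0 h were singled out after their values were seen. The list median was 0.04, -0.03 and 0.10 at 0, 3 and 6 h.

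The list of JAK-STAT signalling from the GM-CSF and G-CSF receptors had 0 of 21 genes higher and 4 lower in ΔM at 3 h, and 0 higher and 1 lower at 6 h, beside 3.34% higher and 4.52% lower of all genes at 3 h and 1.79% and 3.19% at 6 h. At 0 h the feedback inhibitors Socs3 (0.91) and Socs1 (0.81) and the survival gene Mcl1 (0.66) were past the limit upward and Pim2 (-0.68) downward, all log2 ratios and named after their values were seen. At 3 h the survival gene Bcl2l1 was at 51.0 FPKM (WT) and 19.0 FPKM (ΔM), and Cish, a STAT5-induced inhibitor, at 124 and 54.1 FPKM. The kinase gene Pim2 was at 9.06 and 3.51 FPKM. Myc was at 3.95 and 2.06 FPKM at 3 h and at 8.78 and 2.7 FPKM at 6 h. The list median was 0.10, -0.07 and -0.12 at 0, 3 and 6 h, and no gene of the list was called in decay at either time.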

How the data were processed

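The tables cover 42 mRNA libraries (SENSE kit, 100-base single-end reads). The authors mapped reads with GSNAP to mm10 and quantified transcripts with the Mix² software. They deposited pooled FPKM per group, and half-lives and slopes from a linear fit over 3 time points with 3 replicates. How replicates were pooled is not given in the sources used here. Half-life equals -1 divided by the slope of log2 FPKM per min. The deposited fold changes and FDRs from DESeq2 are the authors' own comparisons and were not used. No column of per-library values was used.

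Ratios were log2 of FPKM + 1, for genes with a mean FPKM of at least 1 in the groups compared, computed with Python 3.11.15, pandas 2.3.3, numpy 2.4.6 and biopython 1.88 and drawn with matplotlib 3.10.9. The calling rules were checked on simulated tables without replicates. The simulated level changes were in genes of at least 5 FPKM, and the simulated half-lives were set without error. This check does not show how sure the calls at lower FPKM or near a limit are. GENCODE transcripts gave GC content and 3′ UTRs (86.8% of expressed genes had a value), and RefSeq gene positions on GRCm38.p6. Zfp36, the 8 members, the 3 genes most like each and up to 6 genes past the limit per pathway list at 3 or 6 h were named. Members, lists and rules were chosen with earlier results of these data known. Some results of the lists are not reported here. Depth is unknown, so no interval is given.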

Additional observations from a re-analysis of the deposited data

How the results depend on the processing

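With 1 pooled value per group, no replicate could be left out, no interval from counts could be given, and a single value was taken as unmoved when it shifted by less than 1.5-fold, since the spread between replicates is unknown. No paired analysis was possible because the tables hold no values per replicate. Of 275 single values under the alternatives, 265 shifted by less than 1.5-fold and none of the called ones changed sign. The others were those of Csf1 and Csf3 under another pseudocount, and the 21 places of genes most like a member, of which 4 kept their gene with Pearson correlation. A changed filter leaves a single value as it was by construction. Subtracting the median of all genes shifted a value by 0.39 at most on the log2 scale, which is under 1.5-fold. The 265 is in part fixed in advance by this and is no measure of robustness.

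Of 51 counts of members, 35 stayed within 1.5 times. Among ratios of ΔM to WT, the 3 called genes at 0 h became 0 with a pseudocount of 5 and 0 with a 2-fold limit. The 2 called at 3 h became 1 with a mean FPKM of at least 5 (Csf1) and 1 with a 2-fold limit (Csf3). The 0 called at 6 h became 1 (Csf3) with a pseudocount of 0.1 and 1 with the GC correction. In the LPS response, a 1.5-fold limit gave 5 genes in place of 3 for WT from 3 to 6 h, 5 in place of 3 for ΔM from 0 to 3 h and 5 in place of 2 for ΔM from 3 to 6 h, and a pseudocount of 5 gave 1 for ΔM from 0 to 3 h. In decay, the 2 called genes at 3 h became 1 (Csf1) with the median slope of all genes subtracted, 1 with a mean FPKM of at least 5, 1 with an FPKM of at least 1 in each genotype (chosen after seeing the data) and 1 (Csf3) when a slope difference of 0.5 over 90 min was asked for. At 6 h the 2 became 1 with the median slope subtracted and 0 with the slope difference. The stricter limits and filters leave fewer genes by construction, and for the other changes the cause was not tested. The sum of both β chains was also chosen after seeing the data.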

Other observations

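Transcription factors known to act on colony stimulating factor or receptor genes were listed as well, and 2 of 19 were lower in ΔM at 0 h, 0 of 17 at 3 h and 1 of 17 at 6 h, beside 5.05%, 4.52% and 3.19% of all genes. Rela, a subunit of NF-κB, was at 103 FPKM (WT) and 66.0 FPKM (ΔM) at 6 h. Klf4 and Ets1 were the lower ones at 0 h, at 39.7 and 5.87 FPKM in WT and 25.9 and 2.64 FPKM in ΔM, and were named after their values were seen. The list median of the log2 ratio at 3 h was -0.25, against -0.02 over all genes.

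Of the genes that GM-CSF or CSF-1 support in macrophages, 1 of 15 was higher and 0 lower in ΔM at 0 h, 1 of 16 higher and 3 lower at 3 h, and 4 of 15 higher and 2 lower at 6 h. Over all genes 3.16% were higher and 5.05% lower at 0 h, 3.34% and 4.52% at 3 h, and 1.79% and 3.19% at 6 h. Ccl22, a chemokine gene, was at 115 and 98.2 FPKM in WT at 3 and 6 h and at 44.7 and 35.2 FPKM in ΔM. Ccl17, a related chemokine gene, was at 2.19 FPKM (WT) and 0.13 FPKM (ΔM) at 3 h, and passed the filter on low values only through its WT level. At 6 h it was at 1.23 and 0.13 FPKM and was not compared. Plau and Plaur, the urokinase and its receptor, were higher in ΔM at 6 h, at 1.48 and 2.89 FPKM for Plau and at 40.6 and 70.1 FPKM for Plaur, in WT and ΔM. Apoe was at 132 and 213 FPKM at 6 h, and the cyclin gene Ccnd2 at 24.6 and 14.4 FPKM.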
